A study of Mus musculus with 4 samples.

Results

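The 8 receptor genes built around the common gamma chain were examined in the chromatin of T cells from mouse colorectal tumors and cecum: Il2rg, Il2rb, Il2ra, Il15ra, Il7r, Il4ra, Il21r and Il9r. They were chosen by name from 21887 protein-coding genes, and each was counted over its gene span plus 5 kb on both sides. AKP tumors grow from intestinal organoids, transplanted into the wall of the cecum, that lost Apc and Trp53, among other changes. T cells were sorted 4 weeks later from the tumors and from neighbouring cecum without tumor of perfused mice. Both groups therefore come from tumor-bearing mice, so the cecum stands for tissue beside a tumor and not for a healthy animal. The strain, the age and the number of mice behind each library are not given in the sources used here. Nuclei went through the 10x multiome assay, in which a transposase cuts open DNA (ATAC) and the RNA of the same nucleus is also read. Each tissue gave 1 ATAC library, so no test between conditions was possible, and tissue and library cannot be told apart. The questions were in which T cell types the chromatin of these receptors was open, and whether it differed between IL-10+ and IL-10- regulatory T (Treg) cells.

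The common gamma chain is a surface protein that pairs with partner chains to form the receptors of IL-2, IL-4, IL-7, IL-9, IL-15 and IL-21. Each partner binds its own cytokine, and the shared chain brings in the kinase JAK3, which acts with JAK1 on STAT factors: STAT5 downstream of IL-2, IL-7, IL-9 and IL-15, STAT6 downstream of IL-4 and mainly STAT3 downstream of IL-21. Treg cells depend on IL-2 and carry its high-affinity alpha chain, CD25, while naive and memory T cells depend on IL-7.

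Levels are given as FPM, the fragments with an end in the window per 1000000 fragments of that cell label in that library, with exact 95% Poisson intervals. Ratios are on the log2 scale with exact conditional 95% intervals, and the intervals cover counting error only, not variation between mice. Where values come as a pair, the cecum is first and the tumor second. The libraries held 66399623 and 96644537 fragments, of which 66.2% and 64.3% belonged to the 7155 and 8466 cells that carry 1 of 17 labels, and 84 labelled barcodes occurred in both. The authors made the labels from the RNA of the same nuclei, so the chromatin did not define them. PD1+ CD4 cells numbered 14 and 616 and were left out wherever labels are ordered, which left 16 labels with at least 50 cells in each library. The windows of 6 general T cell markers had a median of 5.19 and 4.77 FPM per kb, against 0.313 and 0.303 for 10 epithelial, 0.700 and 0.632 for 6 myeloid and 0.555 and 0.580 for 6 B cell markers, and none was at 0. The Treg list, which includes Il2ra, was highest in IL-10- Treg cells, with 1028 and 944 FPM, while the IL-10+ subset had 762 and 753 FPM.

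**Figure D1:**
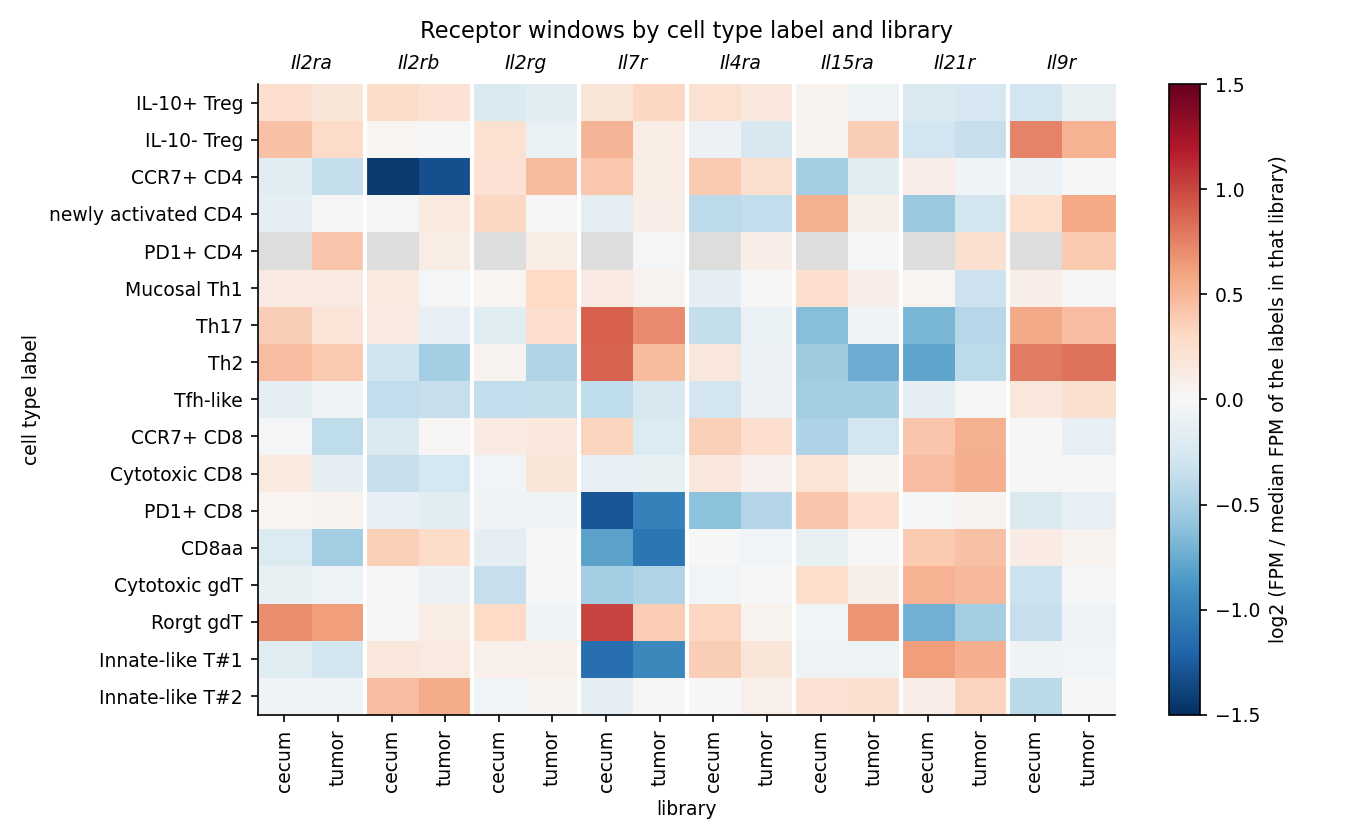
Level of each receptor window in every cell label (rows) and library (columns), as the log2 of its FPM over the median label of that library, with grey where a label has fewer than 50 cells. Il2rb is lowest in CCR7+ CD4 cells, Il7r is low in PD1+ CD8, CD8aa and Innate-like T#1 cells, and Il9r is high in Th2 and IL-10- Treg cells, in both libraries.

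The order of the cell labels was alike in the libraries for 6 of the 8 receptors. Over the 16 labels, Pearson's r between the libraries was 0.93 for Il21r, 0.93 for Il2rb, 0.91 for Il2ra, 0.89 for Il7r, 0.89 for Il9r and 0.87 for Il4ra. Il15ra and Il2rg, whose windows held few fragments, gave 0.53 and 0.25. The labels of a library share its depth and preparation, so these values only describe the pattern. Il2ra, Il2rb and Il9r had the same leading label in both libraries, 3 of the 8 receptors. Per kb of window, the median label was highest at Il2rb (5.85 and 5.62 FPM per kb), followed by Il4ra (5.31 and 5.29) and Il21r (5.19 and 4.70), and lowest at Il15ra (0.919 and 0.996). Neighbours in these orders were mostly too close to separate, and at Il2ra all 15 neighbouring pairs had intervals that included 0 in each library.

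Il2rg (chromosome X, 101264385 to 101268255, minus strand) encodes the common gamma chain itself. Its window held few fragments, and its level ran from 26.3 FPM in Tfh-like to 42.2 FPM in newly activated CD4 cells of the cecum, and from 25.1 FPM in Th2 to 47.95 FPM in CCR7+ CD4 cells of the tumor, a spread of 1.61-fold and 1.91-fold. The log2 ratio of the highest to the lowest label had wide intervals that included 0, of -0.17 to 1.47 and -0.07 to 2.06, so a difference between these labels was not detectable at this depth. Of the 15 other labels, intervals did not separate 15 in the cecum and 13 in the tumor from the highest. IL-10+ Treg cells had 29.2 FPM (24.98 to 34.04) and 30.8 FPM (24.6 to 38.1), and the IL-10- subset 39.7 FPM (32.9 to 47.5) and 32.2 FPM (27.8 to 37.2). Over the window, the log2 ratio of IL-10+ to IL-10- cells was -0.44 (-0.79 to -0.09) and -0.06 (-0.45 to 0.31). Rorgt gdT over Cytotoxic gdT cells gave 0.65 (0.196 to 1.099) and -0.04 (-0.47 to 0.38). Treg over other CD4 cells gave -0.02 (-0.25 to 0.21) and -0.24 (-0.45 to -0.02). Each of these intervals left out 0 in 1 library alone. Those of CCR7+ CD8 and PD1+ CD8 over Cytotoxic CD8 cells included 0 in both. At the Il2rg promoter, from 250 bases before to 50 bases after the start site, the log2 ratio of IL-10+ to IL-10- cells was -0.77 (-1.29 to -0.25) and -0.25 (-0.85 to 0.32), with an interval below 0 in the cecum alone. The window also covers parts of Foxo4 and Gm614, whose fragments cannot be told from its own.

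Il2rb (chromosome 15, 78479256 to 78511621) encodes the beta chain of both the IL-2 and the IL-15 receptor. It was most open in Innate-like T#2 cells, with 343 FPM (309 to 380.3) and 351 FPM (330.4 to 373). CD8aa cells, named for the CD8 alpha homodimer of gut T cells, came second with 317 and 290.2 FPM. CCR7+ CD4 cells, which carry a lymph node homing receptor, stood at the bottom with 91.4 FPM (75.03 to 110.2) and 95.9 FPM (74.8 to 121), which was 3.76-fold and 3.66-fold below the top. The next label up was far from them: Tfh-like cells had 192 FPM in the cecum and Th2 cells 169 FPM in the tumor. CCR7+ CD8 cells did not share the low level, at 213 FPM (189 to 240.3) and 243 FPM (212 to 278). IL-10+ Treg cells had 301 FPM (287 to 316) and 278 FPM (259 to 299), above the 252 FPM (235 to 271) and 239.6 FPM (227 to 253) of IL-10- Treg cells, with log2 ratios of 0.26 (0.13 to 0.38) and 0.22 (0.09 to 0.34). Part of this difference lay in the 500-bp tile chr15:78494001-78494500 inside the gene, with ratios of 0.84 (0.21 to 1.52) and 0.71 (0.05 to 1.36). This tile was named for its ratios, so its intervals are no separate support. Within 1 kb of either gene end the tumor value between the Treg subsets was -0.12. Treg over other CD4 cells gave log2 ratios of 0.30 (0.21 to 0.38) and 0.08 (0.006 to 0.16) over the Il2rb window. That tumor value also had the opposite sign within 1 kb of either gene end.

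Il2ra (chromosome 2, 11642792 to 11693194, plus strand) encodes CD25, the alpha chain that gives the IL-2 receptor its high affinity. Treg cells did not have the highest level. Rorgt gdT cells, gamma delta T cells named for the type 17 factor RORgt, led with 226 FPM (206 to 247) and 231 FPM (211 to 253). Th2 cells followed with 192 FPM (157 to 231) and 196 FPM (157 to 242), and intervals did not separate the pair. IL-10- Treg cells had 189 FPM (173 to 205) and 183 FPM (172 to 194), and IL-10+ Treg cells 165 FPM (155 to 176) and 169.7 FPM (155 to 186). Th17 cells were close to them at 180.3 and 171 FPM, and PD1+ CD4 cells of the tumor had 199 FPM (188 to 210.2). CD8aa cells were lowest with 120.2 FPM (106 to 136) and 104 FPM (93.3 to 115), so the whole order spanned 1.88-fold and 2.23-fold. Against Cytotoxic gdT cells, the other gamma delta label, Rorgt gdT cells were higher by log2 ratios of 0.81 (0.61 to 1.003) and 0.70 (0.52 to 0.87). At the Il2ra promoter the same ratios were 0.92 (0.39 to 1.46) and 0.04 (-0.49 to 0.56), so the tumor interval included 0. The B cell marker list was also highest in Rorgt gdT cells, at 373 and 422 FPM against medians of 178 and 186 FPM. That excess lay at the kinase gene Blk (246 and 274 FPM, against medians of 16.9 and 19.8 FPM in the other labels). Without Blk the list stood at 127 and 149 FPM, within the range of the other labels. The general T cell list was lowest in Rorgt gdT cells, at 512 and 512 FPM against medians of 754 and 694 FPM, and its part in the Il2ra level was not tested.

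**Figure D2:**
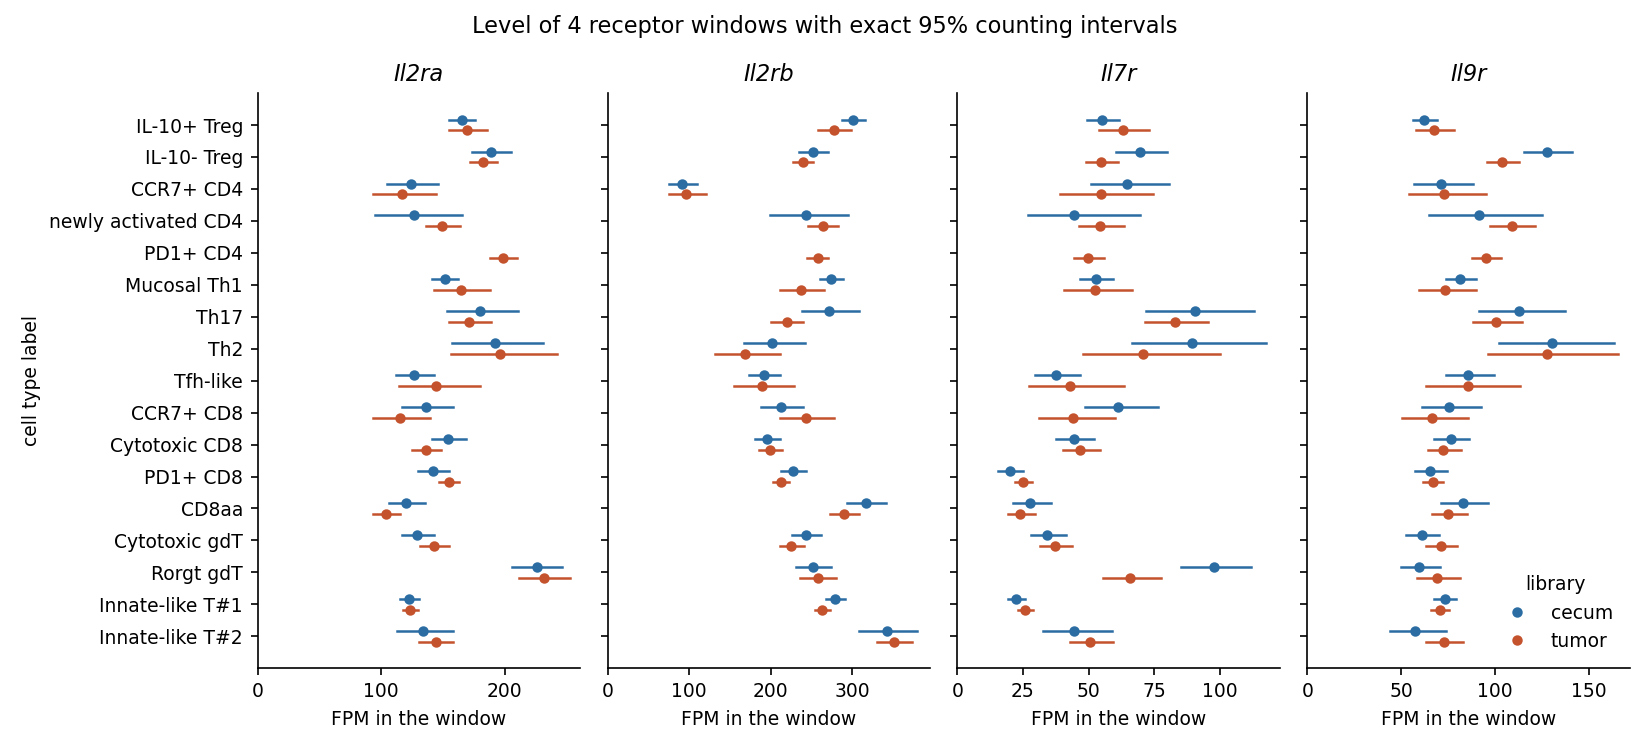
Level in FPM (horizontal axes) of the Il2ra, Il2rb, Il7r and Il9r windows in each cell label of at least 50 cells, with points for the cecum and tumor libraries and bars for exact 95% counting intervals. Il2ra peaks in Rorgt gdT cells at 226 and 231 FPM, and Il9r in Th2 and IL-10- Treg cells of the cecum.

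Treg cells of the cecum had a more open Il2ra window than the pool of the other CD4 labels, with 173 against 147 FPM and a log2 ratio of 0.24 (0.13 to 0.34). The tumor gave 178 against 175 FPM, a ratio of 0.03 (-0.06 to 0.12). Not every CD4 label lay below Treg cells, since Th2 and Th17 cells of the cecum had 192 and 180.3 FPM. The other CD4 cells are a different mix in each library, since Mucosal Th1 cells number 904 and 196 and PD1+ CD4 cells 14 and 616. Without PD1+ CD4 cells, a choice made after the data were seen, the tumor ratio was 0.18 (0.08 to 0.29). Between the Treg subsets, IL-10+ cells lay below IL-10- cells by -0.19 (-0.35 to -0.04) in the cecum, and the tumor gave -0.11 (-0.27 to 0.05). In a window of 1 kb around either gene end the cecal value was 0.00066.

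The wider locus was divided into tiles, which reach beyond the gene window of 5 kb on both sides. Of 302 tiles of 500 bp within 50 kb of Il2ra, 58 had at least 20 fragments over Treg and other CD4 cells in each library. Treg cells were higher in both libraries in 27 of them and lower in both in 10, and the intervals lay above 0 in both libraries in 9 tiles and below 0 in both in 0. Of these 9 tiles, 2 lay within the gene window, so the other 7 added nothing to the window's level. Tiles elsewhere in the genome were not counted, so no share stands beside these numbers. The 5 tiles with the highest mean level were chr2:11603001-11603500 at -39.5 kb, within the neighbour Rbm17 (36.1 FPM), chr2:11642501-11643000 at the Il2ra start (20.97 FPM), chr2:11653001-11653500 and chr2:11653501-11654000, which lie 10.5 and 10.96 kb into the gene (19.7 and 29.2 FPM), and chr2:11705501-11706000 in Il15ra (21.4 FPM). At the Il2ra start, intervals did not separate Treg from other CD4 cells, with log2 ratios of 0.03 (-0.25 to 0.31) and -0.13 (-0.39 to 0.12). At 10.96 kb the cecum gave -0.04 (-0.29 to 0.20), and Treg cells of the tumor lay below other CD4 cells by -0.47 (-0.71 to -0.23).

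The tiles named for being higher in Treg cells were weak and away from the start. The largest ratio was at chr2:11626001-11626500, -16.5 kb from the start, with log2 ratios of 2.599 (1.02 to 4.61) and 2.01 (0.94 to 3.17). The others named were chr2:11634501-11635000 at -8.04 kb (2.13 and 1.77), chr2:11666501-11667000 at 23.96 kb (1.72 and 1.84), chr2:11623501-11624000 at -19.04 kb (1.91 and 1.52) and chr2:11666001-11666500 at 23.5 kb (2.45 and 1.301). All 5 had intervals above 0 in both libraries, but they were chosen for these ratios, so the intervals are no separate support. These tiles also reached the minimum of 20 fragments partly through Treg cells, as with 20 against 4 in the cecum at -16.5 kb. They rest on few fragments, for example 36 against 8 in the cecum and 29 against 20 in the tumor at 23.5 kb. Of these tiles, 3 lie before the gene, outside the window, and a neighbouring pair lies inside the gene. Named for being lower in Treg cells were chr2:11664501-11665000 (-0.72 and -1.32), chr2:11658001-11658500 (-0.50 and -1.40) and chr2:11654001-11654500 (-0.61 and -0.62), all inside the gene. Their cecal intervals included 0, as did the tumor interval of the last named.

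The tile at 23.5 kb was open in type 17 labels too. It reached 8.32 FPM (4.93 to 13.2) and 9.41 FPM (5.75 to 14.5) in Rorgt gdT cells and 8.04 FPM (3.23 to 16.6) and 5.13 FPM (2.65 to 8.96) in Th17 cells. IL-10+ Treg cells had 5.08 FPM (3.40 to 7.29) and 7.33 FPM (4.48 to 11.3), and the IL-10- subset 2.33 FPM (0.938 to 4.81) and 1.55 FPM (0.709 to 2.94). In Th2 cells, whose whole window was as open as that of Treg cells, it held no fragment, where 3 fragments would be 5.27 and 6.83 FPM and the exact upper limits were 6.49 and 8.403 FPM. The fragments of IL-10+ Treg cells came from 25 of 996 and 17 of 387 cells, with at most 2 from 1 cell. Between the Treg subsets its log2 ratios were 1.12 (-0.10 to 2.56) and 2.24 (1.04 to 3.56), and chr2:11636001-11636500, -6.54 kb from the start and just outside the window, had 1.95 (0.21 to 4.33) and 1.98 (0.55 to 3.55). In the opposite direction, chr2:11663001-11663500 at 20.5 kb had -1.12 (-1.91 to -0.34) and -0.82 (-1.83 to 0.08), with 10.7 FPM and 8.44 FPM in IL-10- Treg cells and 4.90 FPM and 4.77 FPM in the IL-10+ subset. Also lower in the IL-10+ subset were chr2:11617001-11617500 at -25.5 kb (-1.74 and -0.75) and chr2:11652001-11652500 at 9.46 kb (-0.69 and -0.76). Also higher was chr2:11623501-11624000 at -19.04 kb (1.98 and 0.77). Each of these had an interval that included 0 in at least 1 library. All these tiles were named for their ratios between the subsets. Of the 19 tiles in the gene window with enough fragments, 6 were higher and 8 lower in the IL-10+ subset in both libraries, and 0 had intervals on the same side of 0 in both. In the wider locus 1 of 33 tiles did, the one at -6.54 kb. That tile had 22 fragments in IL-10+ against 3 in IL-10- cells of the cecum, and 13 against 7 in the tumor. It thus reached the minimum of 20 fragments mainly through IL-10+ cells, so its intervals are no separate support.

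**Figure D3:**
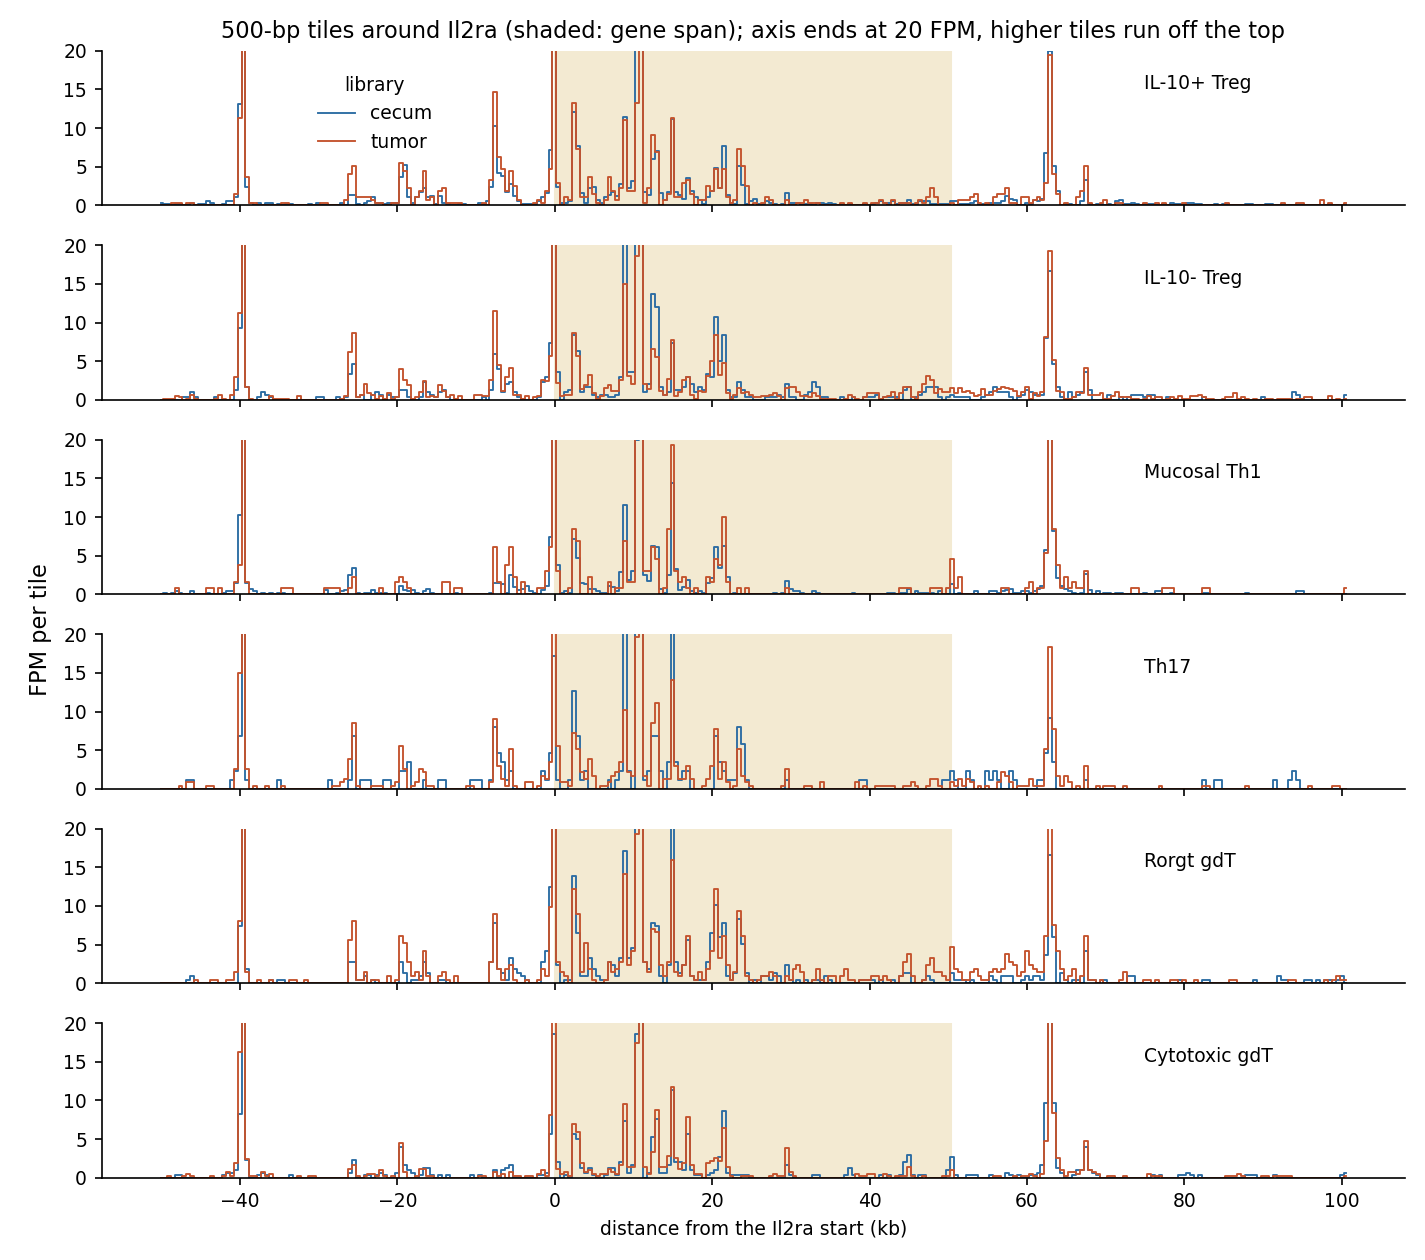
FPM in 500-bp tiles (vertical axes, ending at 20 FPM) against the distance in kb from the Il2ra start, for 6 cell labels, with the cecum and tumor libraries as lines. The start and the tiles near 11 kb are high in all 6 labels, while the tile at 23.5 kb is seen in IL-10+ Treg, Th17 and Rorgt gdT cells.

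The promoter of Il2ra, from 250 bases before to 50 bases after the start site, is shown because it did not separate the Treg subsets. It held 21.7 FPM and 23.5 FPM in IL-10+ Treg cells and 21.7 FPM and 21.4 FPM in the IL-10- subset, with log2 ratios of 0.00 (-0.44 to 0.46) and 0.14 (-0.32 to 0.58). The sequence is from RefSeq (GRCm38.p6, chr2:11642542-11642841, plus strand), with capitals for GGAAA, letters that NFAT factors bind, or its reverse complement.
Il2ra promoter: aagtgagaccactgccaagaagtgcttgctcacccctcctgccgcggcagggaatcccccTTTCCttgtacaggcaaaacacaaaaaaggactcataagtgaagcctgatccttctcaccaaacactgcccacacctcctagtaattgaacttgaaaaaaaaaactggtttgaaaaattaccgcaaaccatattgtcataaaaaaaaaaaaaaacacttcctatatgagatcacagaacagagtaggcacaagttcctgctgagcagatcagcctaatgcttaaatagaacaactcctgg
It had 1 match, and 61.3% of the 32851 promoters in the table, all of 300 bases, hold at least 1. It had no match to TTCNNNGAA, the spaced letters that STAT factors bind, which 8.30% of all promoters hold, or to the same letters with 1 more base of spacing, which 6.95% hold. Both strands were searched, and a match is a description of the letters only.

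Il15ra (chromosome 2, 11705172 to 11733985, plus strand) encodes the alpha chain that binds IL-15 and lies just downstream of Il2ra, with a window that does not overlap that of Il2ra. Its levels were low, between 22.97 FPM in Th17 and 51.5 FPM in newly activated CD4 cells of the cecum, and between 22.8 FPM in Th2 and 60.2 FPM in Rorgt gdT cells of the tumor. Rorgt gdT cells differed between the libraries, with 34.7 FPM (27.3 to 43.5) and 60.2 FPM (50.2 to 71.6), a tumor to cecum log2 ratio of 0.80 (0.37 to 1.23). IL-10- Treg cells had 36.7 and 49.1 FPM, a ratio of 0.42 (0.10 to 0.75), while IL-10+ Treg cells had 36.95 and 36.3 FPM, a ratio of -0.03 (-0.39 to 0.33).

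Il7r (chromosome 15, 9506159 to 9529941, minus strand) encodes the IL-7 receptor alpha chain, a survival receptor of naive and memory T cells. Its levels were highest in type 17 and Th2 labels. In the cecum, Rorgt gdT cells had 98.05 FPM (85.3 to 112), Th17 cells 90.7 FPM (71.8 to 113) and Th2 cells 89.7 FPM (66.8 to 118). In the tumor, Th17 cells led with 82.9 FPM (71.7 to 95.5), followed by Th2 cells with 70.6 FPM (47.98 to 100.2), and Rorgt gdT cells had 65.9 FPM (55.4 to 77.7). CCR7+ CD4 cells had 64.5 and 54.8 FPM and CCR7+ CD8 cells 61.4 and 43.9 FPM. The log2 ratio of CCR7+ CD8 to Cytotoxic CD8 cells was 0.46 (0.05 to 0.87) and -0.09 (-0.63 to 0.41). At the bottom stood PD1+ CD8 cells with 19.99 FPM (15.6 to 25.2) and 25.03 FPM (21.9 to 28.5), Innate-like T#1 cells with 22.3 and 25.9 FPM and CD8aa cells with 27.8 and 23.99 FPM. The top label exceeded the bottom label 4.91-fold and 3.46-fold. PD1+ CD8 cells lay below Cytotoxic CD8 cells, which had 44.6 and 46.9 FPM, by log2 ratios of -1.16 (-1.58 to -0.74) and -0.91 (-1.19 to -0.61). Rorgt gdT cells lay above Cytotoxic gdT cells by 1.52 (1.17 to 1.87) and 0.82 (0.48 to 1.16). At the Il7r promoter the ratios of these labels were 1.30 (0.26 to 2.40) and 0.04 (-1.10 to 1.11). The Treg subsets had no common direction, with IL-10+ to IL-10- ratios of -0.34 (-0.59 to -0.08) and 0.20 (-0.07 to 0.48).

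The Il7r promoter is shown because it held a match to the STAT letters. It is from RefSeq (GRCm38.p6, chr15:9529827-9530126, minus strand), with TTCNNNGAA in capitals.
Il7r promoter: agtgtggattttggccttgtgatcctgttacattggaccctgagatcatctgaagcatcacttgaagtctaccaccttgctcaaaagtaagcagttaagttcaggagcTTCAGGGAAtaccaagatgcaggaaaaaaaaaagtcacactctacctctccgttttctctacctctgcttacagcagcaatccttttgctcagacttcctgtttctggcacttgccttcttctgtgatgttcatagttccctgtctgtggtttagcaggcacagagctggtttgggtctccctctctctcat
The match begins at base -142 from the start site. The promoter itself held few fragments, with 5.78 and 8.06 FPM in IL-10+ Treg cells, 3.999 and 4.13 FPM in the IL-10- subset and 1.67 and 2.62 FPM in PD1+ CD8 cells.

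Il4ra (chromosome 7, 125552271 to 125579474, plus strand) encodes the IL-4 receptor alpha chain, which also serves IL-13. It was most open in the CCR7+ labels and in Innate-like T#1 cells, but intervals did not separate 5 labels of the cecum and 9 of the tumor from the highest label. CCR7+ CD4 cells had 259 FPM (231 to 289.6) and 233 FPM (199 to 271), CCR7+ CD8 cells 253 and 235 FPM, and Innate-like T#1 cells 256 and 223 FPM. PD1+ CD8 cells were lowest with 129 FPM (117 to 141) and 145 FPM (137 to 153), and they lay below Cytotoxic CD8 cells by log2 ratios of -0.78 (-0.95 to -0.61) and -0.51 (-0.64 to -0.38). IL-10+ Treg cells had 232 FPM (219 to 244) and 220.3 FPM (203 to 239) against 185 FPM (170.2 to 201) and 167 FPM (157 to 178) in IL-10- Treg cells, with ratios of 0.32 (0.18 to 0.47) and 0.40 (0.25 to 0.55). Il4ra and Il2rb each had 14 of 24 tiles higher in the IL-10+ subset in both libraries, against 3 and 6 tiles lower in both. Intervals lay above 0 in both libraries in 2 tiles of Il4ra and 3 of Il2rb and below 0 in none, while Il21r, also with 24 tiles, had 6 higher and 7 lower. The tiles hold the fragments that gave the window ratios, so these counts are no separate support. Tiles elsewhere in the genome were not counted, so no share stands beside them. The tiles named in Il4ra included the neighbours chr7:125556501-125557000 and chr7:125557001-125557500, where IL-10+ Treg cells of the cecum had 39 fragments each against 4 and 8. Their ratios were 2.36 (0.89 to 4.303) and 1.01 (-0.04 to 2.05) for the first and 1.36 (0.24 to 2.67) and 0.98 (0.15 to 1.81) for the second tile. Both were named for these ratios and in the cecum reached the minimum of 20 fragments mainly through IL-10+ cells. The intervals of these tiles are therefore no separate support. The promoter of Il4ra gave 0.05 (-0.34 to 0.46) and 0.25 (-0.16 to 0.64), with intervals that included 0, and within 1 kb of either gene end the cecal value was -0.013.

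Il21r (chromosome 7, 125603252 to 125634397, plus strand), the next receptor gene after Il4ra, encodes the IL-21 receptor. Its highest levels were in Innate-like T#1 cells and in cytotoxic and CD8 labels. Innate-like T#1 cells had 329 FPM (317 to 342) and 288 FPM (279 to 298), Cytotoxic CD8 cells 295 and 288 FPM, Cytotoxic gdT cells 306 and 277 FPM, CCR7+ CD8 cells 286 and 286 FPM and CD8aa cells 279.8 and 268 FPM. Innate-like T#2 cells, with 228 and 249 FPM, and PD1+ CD8 cells, with 209.9 and 203 FPM, were lower. Th2 cells had 123 FPM (95.9 to 155) and 150.3 FPM (116 to 191), Rorgt gdT cells 129.5 FPM (115 to 146) and 139 FPM (124 to 156), and Th17 cells 133 and 147 FPM, so the labels at the top of Il7r were at the bottom of Il21r. Rorgt gdT cells lay below Cytotoxic gdT cells by log2 ratios of -1.24 (-1.44 to -1.05) and -0.99 (-1.18 to -0.81). Both Treg labels were in the lower part, at 183 and 166 FPM in IL-10+ cells and 175 and 156 FPM in the IL-10- subset, and the log2 ratio of Treg to the pooled other CD4 cells was -0.14 (-0.23 to -0.04) and -0.27 (-0.37 to -0.18). The tumor value rested on PD1+ CD4 cells, which had 233 FPM: without them, a choice made after the data were seen, it was -0.03 (-0.13 to 0.08), while the cecum kept -0.14 (-0.23 to -0.04). Single CD4 labels lay on both sides of the Treg labels, with Th17 and Th2 cells below both of them in each library. At the Il21r promoter the ratios of Treg to all other CD4 cells were 0.50 (0.22 to 0.79) and 0.21 (-0.04 to 0.46).

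Il9r (chromosome 11, 32187544 to 32205283, minus strand) encodes the alpha chain of the IL-9 receptor. Of the 8 windows it had the log2 ratios between the Treg subsets that were furthest from 0. IL-10- Treg cells had 128 FPM (115 to 141) and 104 FPM (95.7 to 112). IL-10+ Treg cells had 62.4 FPM (56.04 to 69.2) and 67.5 FPM (58.1 to 77.9), so the intervals did not overlap in either library. The log2 ratios of IL-10+ to IL-10- cells were -1.03 (-1.25 to -0.82) and -0.62 (-0.87 to -0.38). Th2 cells were at the top with 130.1 FPM (102 to 163) and 128 FPM (96.4 to 166), and Th17 cells (113 and 100.5 FPM) and newly activated CD4 cells (91.4 and 109 FPM) were also high. Within 1 kb of either gene end, which leaves out the start site, the Treg ratios were -0.089 and 0.14, and over the gene span alone they were -1.73 and -1.61. CD8, gamma delta and innate-like labels lay between 57.5 and 83.1 FPM in the cecum and between 66.4 and 75.1 FPM in the tumor.

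**Figure D4:**
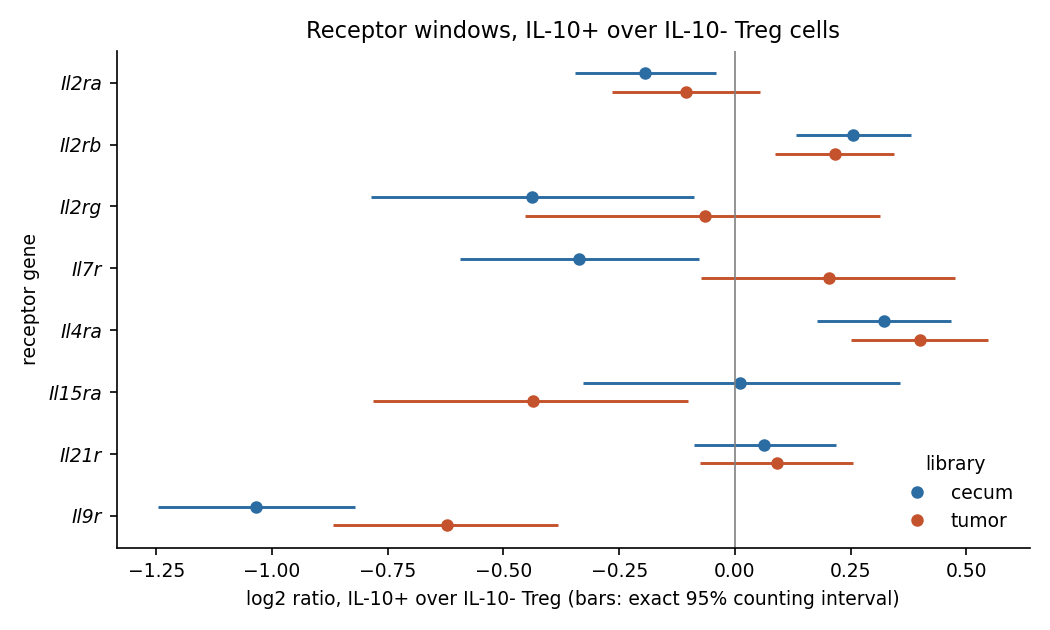
Log2 ratio of the IL-10+ to the IL-10- Treg subset (horizontal axis) for each receptor window, with points for the 2 libraries and bars for exact 95% counting intervals. Il9r lies below 0 in both libraries, at -1.03 and -0.62, and Il2rb and Il4ra lie above 0 in both.

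Tiles divided the Il9r window into 2 parts, a division made after the data were seen. The 4 tiles between 6 and 4 kb before the start site hold the outer end of the gene span and the end of the neighbour Snrnp25 nearest to it. They varied less between labels than the other tiles did, from 50.9 to 80.8 FPM in the cecum and from 41.0 to 82.7 FPM in the tumor, and gave 36.4% to 84.2% of a label's tile counts in the cecum. A fragment with ends in 2 tiles counts in both. FPM over these summed tiles is therefore a level of tile counts and cannot be set beside the level of the window. The intervals treat tile counts as separate, so they are too narrow. Between the Treg subsets their log2 ratios were -0.06 (-0.32 to 0.19) and 0.23 (-0.03 to 0.49). The other 52 tiles carried the difference, with 76 and 38 tile counts in IL-10+ against 285 and 397 in IL-10- Treg cells and ratios of -2.83 (-3.22 to -2.47) and -2.295 (-2.82 to -1.81). The levels there were 94.98 FPM (84.3 to 107) and 68.4 FPM (61.8 to 75.5) in IL-10- Treg cells, 13.3 FPM (10.5 to 16.7) and 13.9 FPM (9.86 to 19.1) in the IL-10+ subset and 111 FPM (85.1 to 142) and 123 FPM (92.4 to 161) in Th2 cells. PD1+ CD4 cells of the tumor had 70.5 FPM. IL-10+ Treg cells were thus near Cytotoxic gdT cells (11.97 FPM and 13.4 FPM), Rorgt gdT cells (12.03 FPM and 13.6 FPM) and PD1+ CD8 cells (12.8 FPM and 15.4 FPM).

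**Figure D5:**
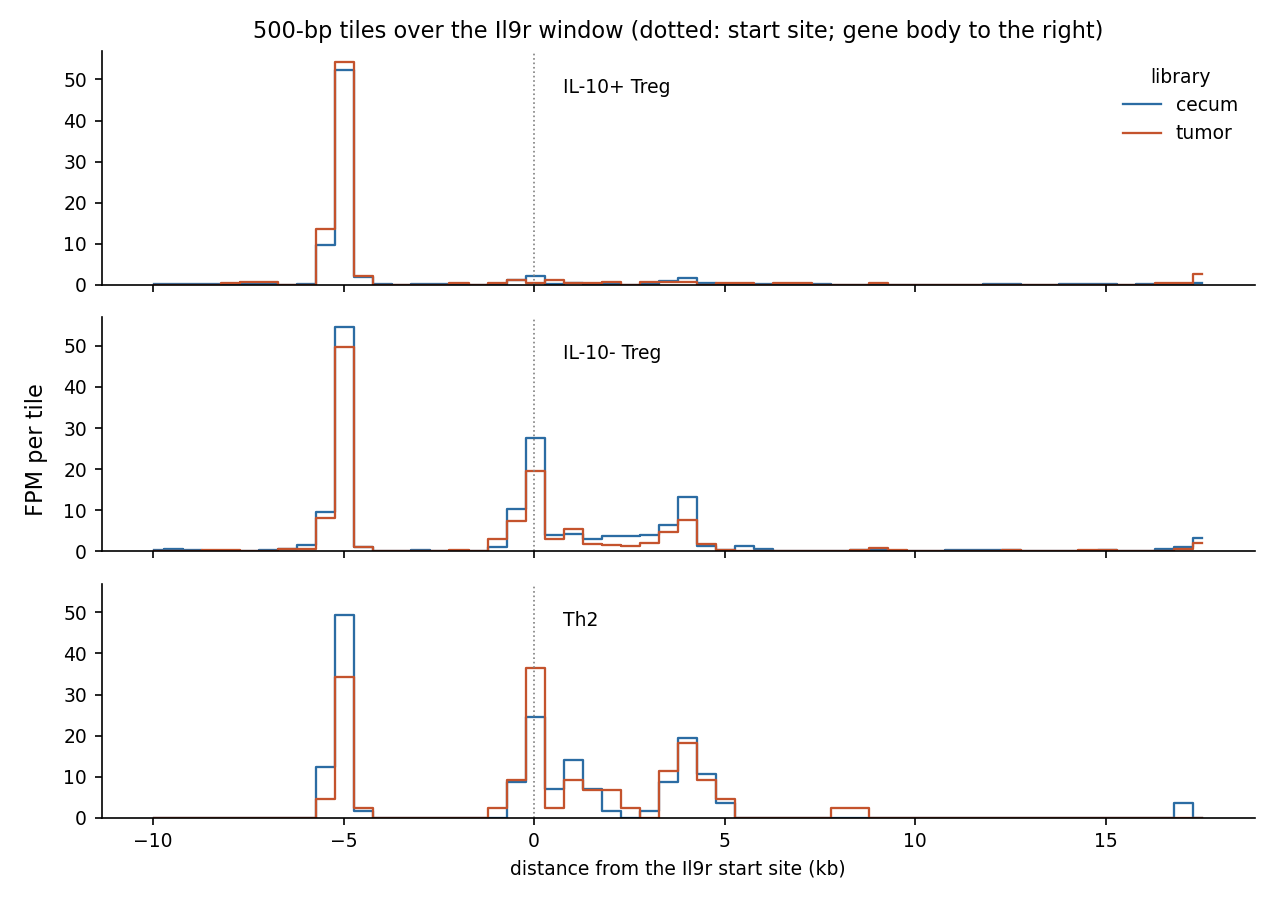
FPM in 500-bp tiles against the distance in kb from the Il9r start site, with the cecum and tumor libraries as lines. The peak about 5 kb before the start site is present in IL-10+ Treg, IL-10- Treg and Th2 cells, while the tiles at the start site and near 4 kb into the gene are close to 0 in IL-10+ Treg cells.

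In FPM, the difference between the Treg subsets was largest at the start site. The RefSeq promoter of Il9r held 68 fragments in IL-10- Treg cells of the cecum, 22.7 FPM (17.6 to 28.7), against 9 fragments in the IL-10+ subset, 1.58 FPM (0.721 to 2.99). In the tumor it held 91 fragments, 15.7 FPM (12.6 to 19.2), against 1 fragment, 0.367 FPM (0.00928 to 2.04). The log2 ratios were -3.85 (-5.03 to -2.84) and -5.42 (-10.7 to -2.904). The fragments of IL-10- Treg cells came from 59 of 424 and 78 of 737 cells, with at most 3 from 1 cell. Th2 cells had 14.1 FPM (6.07 to 27.7) and 29.6 FPM (15.8 to 50.6), Th17 cells 13.8 and 10.3 FPM and newly activated CD4 cells 14.1 and 10.7 FPM, while Cytotoxic gdT cells had 0.665 and 2.15 FPM. A tile inside the gene, chr11:32196001-32196500 at 4.03 kb from the start site, had ratios of -2.93 (-4.09 to -1.903) and -3.402 (-6.49 to -1.47) between the Treg subsets. Of the 6 Il9r tiles with enough fragments, 4 had intervals below 0 in both libraries, and none of the tiles in the other 7 windows did. These 4 tiles reached the minimum mainly through IL-10- cells, with 83 and 113 fragments against 13 and 1 at the tile of the start site. The count is therefore no separate support for the difference, and tiles elsewhere in the genome were not counted.

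The Il9r promoter is shown because the Treg subsets differed there. It is from RefSeq (GRCm38.p6, chr11:32200230-32200529, minus strand), with capitals for GATAA, letters that GATA factors bind, or its reverse complement, a search added after the data were seen.
Il9r promoter: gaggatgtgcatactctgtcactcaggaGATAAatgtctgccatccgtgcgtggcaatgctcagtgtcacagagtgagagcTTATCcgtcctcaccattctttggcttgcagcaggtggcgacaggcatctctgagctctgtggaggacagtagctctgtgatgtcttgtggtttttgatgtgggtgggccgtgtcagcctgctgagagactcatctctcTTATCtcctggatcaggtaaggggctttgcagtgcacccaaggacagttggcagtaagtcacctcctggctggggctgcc
It had 3 matches, which begin at bases -222, -169 and -30 from the start site, and 25.4% of all promoters in the table hold at least 1. No other receptor promoter in the table had a match to GATAA. The Il9r promoter had no match to the STAT or NFAT letters. The start site used here lies 5.004 kb inside the gene span of the annotation.

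Few receptors passed a common size in the study's contrasts. A gene was counted where its log2 ratio, with 1 FPM added to both sides, was past 1.5-fold in the same direction in both libraries, among genes with at least 50 fragments in each, and all 8 receptors were tested each time. For the Treg subsets Il9r alone was lower in IL-10+ cells and none was higher, against 4.36% and 0.861% of 14409 genes. For Treg cells against other CD4 cells none passed, while 1.47% of 16022 genes were higher and 1.94% lower. For PD1+ CD8 against Cytotoxic CD8 cells Il7r was lower, where 0.699% of all genes were, and none was higher, where 1.81% were. For CCR7+ CD8 against Cytotoxic CD8 cells none passed, while 3.66% of all genes were higher and 4.03% lower. For Rorgt gdT against Cytotoxic gdT cells, a contrast added after the data were seen, 3 of the 8 passed in either direction, Il2ra and Il7r higher and Il21r lower, against 10.4% of all genes. In windows of 1 kb around the gene ends, none was past this size lower in IL-10+ Treg or PD1+ CD8 cells or higher in Rorgt gdT cells. The median log2 ratio of the 8 receptors between the Treg subsets was -0.09 and 0.01, against 0.011 and 0.009 over all genes tested, and for Treg against other CD4 cells it was 0.09 and -0.03, against -0.018 and 0.004.

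Between tumor and cecum, no receptor passed 1.5-fold in both Treg labels, where 0.528% of all genes were higher and 0.0563% lower in the tumor. For Il2ra the tumor to cecum log2 ratio was 0.04 (-0.12 to 0.20) for the IL-10+ and -0.05 (-0.20 to 0.10) for the IL-10- Treg subset, and 15 of 16 labels had intervals that included 0. In IL-10- Treg cells, 4 of the 8 receptors had intervals that left out 0: Il7r at -0.35 (-0.60 to -0.09), Il9r at -0.30 (-0.48 to -0.11) and Il21r at -0.17 (-0.33 to -0.01) were lower in the tumor, and Il15ra was higher, as given above. In the IL-10+ subset none of the 8 had such an interval, with 0.19 (-0.08 to 0.47) for Il7r and 0.11 (-0.15 to 0.37) for Il9r, and the difference between the subsets was not tested. Over all 14207 genes tested, 17.1% had such an interval in the IL-10- subset and 15.8% in the other. Il7r was lower in Rorgt gdT cells of the tumor by -0.57 (-0.89 to -0.26). Il21r had 4 intervals below 0 over the 16 labels, the largest difference in Mucosal Th1 cells at -0.45 (-0.67 to -0.23). Il2rg had no interval on either side of 0. The share of all genes was counted for the Treg labels alone, so none stands beside these counts over labels.

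The 26 other genes of the pathway were 8 ligands, 2 partner chains, 6 kinases and STATs and 10 feedback and target genes. For Treg cells against other CD4 cells, 5 of 26 tested were lower and none was higher, against 1.94% and 1.47% of all genes. They were the cytokine genes Il2 (-1.74 and -1.697 on the log2 scale), Il4 (-0.85 and -1.12), Il15 (-1.32 and -1.11) and Il21 (-1.53 and -1.95), and the survival gene Bcl2 (-0.78 and -0.59). Il2 had 12.2 and 10.3 FPM in Treg cells against 40.5 and 33.4 FPM in other CD4 cells. Between the Treg subsets, 4 of 23 tested were lower in IL-10+ cells and 2 higher, against 4.36% and 0.861% of all genes. The lower genes were all ligands, of which 6 were tested: Il2 (-0.98 and -0.97), Il4 (-2.68 and -2.37), Il13 (-2.404 and -1.04) and Il9 (-1.35 and -1.23). Il9, which encodes the ligand of the Il9r product, had 12.96 and 10.3 FPM in IL-10+ and 32.99 and 24.1 FPM in IL-10- Treg cells. Il4 and Il13 rested on only 14 and 5 and on 32 and 19 fragments in the IL-10+ subset. Higher in IL-10+ Treg cells were Il21 (1.17 and 2.29) and Socs2 (0.73 and 0.79), a feedback inhibitor of cytokine receptors that STAT5 induces. Il21 rested on 17 and 20 fragments in the IL-10- subset, against 73 and 46 in IL-10+ cells. Il4, Il13 and Il21 reached the minimum of 50 fragments mainly through the subset in which they were higher.

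In the other contrasts, 4 of 21 pathway genes tested passed in Rorgt gdT, 1 of 23 in PD1+ CD8 and 2 of 19 in CCR7+ CD8 cells, beside the shares of all genes given above. Rorgt gdT cells were higher than Cytotoxic gdT cells at the feedback genes Cish (0.73 and 0.84), Socs2 (1.79 and 1.095) and Socs3 (1.08 and 0.79) and lower at Il7 (-1.41 and -1.94). PD1+ CD8 cells were lower than Cytotoxic CD8 cells at Il9 (-1.14 and -1.25). CCR7+ CD8 cells were higher than Cytotoxic CD8 cells at Socs3 (1.12 and 1.14) and lower at Il2 (-4.14 (-6.43 to -2.56) and -1.12 (-2.04 to -0.33)), which rested on 3 and 14 fragments in CCR7+ CD8 cells. None of the 6 kinase and STAT genes, Jak1, Jak3, Stat3, Stat5a, Stat5b and Stat6, passed in any contrast, and none of the 20 pathway genes tested passed between tumor and cecum.

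The genes most like each receptor were found by the Pearson correlation of log2(FPM + 1) over the 33 combinations of label and library with at least 50 cells, among genes with a mean of at least 20 FPM that lie more than 100 kb away or on another chromosome. Il2ra was most like Slc15a3 (0.88), Cish (0.86) and Tbck (0.85), of which Cish, a feedback inhibitor that STAT5 induces, is on the pathway list. Il21r was most like Gtf2ird2 (0.87), Fam241a (0.85) and Atp6v0a2 (0.84), and Il7r like Tnfrsf25 (0.84), Espn (0.80) and Hormad2 (0.79). Il2rb was most like Niban2 (0.83), Tnfrsf1b (0.82) and Acsbg1 (0.80), and Il9r like Rap1a (0.81), Ebi3 (0.79) and Kif3a (0.78). The values were lower for Il15ra, with Gfod1 (0.74), Sytl1 (0.68) and Uts2 (0.68), for Il4ra, with Ifrd1 (0.72), Acvr1b (0.69) and Zfp395 (0.69), and for Il2rg, with Scn4a (0.64), Fam114a1 (0.62) and Sra1 (0.61). The combinations share 2 libraries, so these values only describe the pattern.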

How the data were processed

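ATAC fragments of the cecum and tumor libraries were analysed, and the RNA of the same nuclei was not used here. Per the file headers and the labels, the deposited fragment tables were made by the authors with Cell Ranger ARC 2.0.0 and mm10. The deposited values are raw counts, made by the authors from aligned read pairs and not normalized: a line holds 1 unique fragment, its barcode and the count of read pairs behind it (4.29 and 3.11 on average). Per the study's methods, cells were filtered for quality and clustered on RNA, and the deposited cell annotation pairs 15621 cells with their label and library.

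Fragments on the autosomes and sex chromosomes were counted once per window and summed over the cells of a label (Python 3.11.15, numpy 2.4.6, numba 0.67.0). Gene spans were taken from RefSeq annotation of GRCm38.p6, the build of mm10, which came without exons, so exons and introns are not stated. Strand, start sites and promoter sequences came from its promoter table, which holds 7 of the 8 receptors. Intervals are exact (scipy 1.17.1), and no test was made. Ratios across all genes had 1 FPM added, so changes of genes with few fragments are understated. The counting and the ratios were tested on simulated data. Doublets were not called.

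The receptors, the pathway and marker lists and the contrasts were chosen with earlier results of these data known. Named were all 8 receptors, the 3 most similar genes of each, the pathway genes past 1.5-fold and the Il2ra tiles that led in mean level or in the Treg contrasts. The tiles of the other receptors were named by the same rule, added after the data were seen. Alternatives were cells of at least 1000 fragments, cells of at most 3 times the median depth, narrower windows, scaling by fragments near gene ends, counting of fragment ends, 5 FPM added to ratios, gene minimums of 0 or 200 fragments, 1000-bp tiles and a tile minimum of 50 fragments. The full genotype of the tumor organoids is not reported here.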

Additional observations from a re-analysis of the deposited data

Results flagged for a closer look

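Il4ra differed between the libraries in opposite directions between cell labels: the log2 ratio of tumor to cecum was 0.17 (0.02 to 0.33) in PD1+ CD8 cells, -0.20 (-0.28 to -0.12) in Innate-like T#1 cells and -0.27 (-0.46 to -0.09) in Rorgt gdT cells. The intervals of the other 13 labels included 0. The difference between these labels was not tested.

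Fragments of barcodes without a label, which no comparison used, also covered the receptors. Il2ra had 106 FPM (102 to 111) there in the cecum and 133 FPM (129 to 137) in the tumor, and Il9r 64.8 FPM (61.5 to 68.2) and 70.5 FPM (67.7 to 73.4).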

How the results depend on the processing

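With 1 library per tissue, no value carries an error between mice, and depth limits single tiles and labels with few cells, such as Th2. No paired analysis was possible because each tissue had 1 library. Of 549 alternative values for 78 results, 463 stayed within the 95% interval of the main value or within 1.5 times the main count. The cause of the other changes was not tested, beyond what the construction of an alternative shows.

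Counting only fragments at most 1 kb from a gene end, which leaves out the Il9r start site and most of each gene, changed the most. For Il2ra it gave 0.046 and -0.091 (cecum and tumor) in Treg against other CD4 cells and 0.00066 between the Treg subsets of the cecum, and for Il9r -0.089 and 0.14 between the Treg subsets. The receptors past 1.5-fold then numbered 0 between the Treg subsets, 0 in PD1+ CD8 and 0 on the higher side of Rorgt gdT cells, and 1 receptor had the same leading label in both libraries. The other values of opposite sign were Il2rb in the tumor (-0.15 for Treg against other CD4 cells, -0.12 between the Treg subsets and -0.11 between the gamma delta labels), Il4ra between the Treg subsets of the cecum (-0.013), Il15ra in the tumor (-0.023 for Treg against other CD4 cells and -0.046 between the gamma delta labels) and Il21r for Treg against other CD4 cells of the cecum (0.16). The gene span alone gave -1.73 and -1.61 for Il9r between the Treg subsets and left 1 receptor higher in Rorgt gdT cells. For Il2ra in Treg against other CD4 cells of the tumor, the value was 0.18 without PD1+ CD4 cells and 0.13 with equal weights for the CD4 labels, both tried after the data were seen. Without PD1+ CD4 cells the tumor value for Treg against other CD4 cells was also -0.025 (main -0.27) for Il21r, 0.041 (main -0.066) for Il4ra and 0.18 (main 0.084) for Il2rb, and Il7r gave -0.11 (main 0.010).

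The Il2ra tiles higher in Treg cells numbered 27 of 58 with enough fragments, 14 of 40 without very deep cells, 17 of 39 with 1000-bp tiles and 10 of 27 at a minimum of 50 fragments. The Il9r promoter ratio lay between -5.01 and -3.80 in the cecum and between -5.42 and -5.22 in the tumor when shallow or very deep cells were left out.

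Counts over all genes moved as follows, higher before lower. Near gene ends they fell from 235 and 311 to 129 and 115 for Treg against other CD4 cells, from 124 and 628 to 57 and 184 between the Treg subsets, from 484 and 534 to 204 and 152 for CCR7+ CD8, from 261 and 101 to 86 and 47 for PD1+ CD8, and from 731 and 681 to 272 and 266 for Rorgt gdT cells, with 22 in place of 75 higher in the tumor. With no gene minimum they became 214 and 1077 between the Treg subsets, 813 and 1522 for CCR7+ CD8, 481 and 181 for PD1+ CD8, 292 and 80 for tumor over cecum and 1279 higher for Rorgt gdT cells. With a minimum of 200 fragments they became 139 and 184 for Treg against other CD4 cells, 76 and 187 between the Treg subsets, 173 and 194 for CCR7+ CD8, 93 and 49 for PD1+ CD8, 289 and 331 for Rorgt gdT cells, and 10 and 0 for tumor over cecum. With 5 FPM added, 169 were lower in Treg than other CD4 cells, 152 higher in PD1+ CD8 cells, and 44 and 4 passed for tumor over cecum. For tumor over cecum, counting each fragment end gave 161 and 25 and the gene span alone 14 lower.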
